A study of Sus scrofa with 23 samples.

Results

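The solute carrier (SLC) genes are the large group of genes for membrane transporters that are numbered by family, from the glutamate transporters of SLC1 upward. They were taken as every gene whose array probe set carried a single symbol made of SLC and a digit, except 2 genes that are not used here, and each gene was read from its probe set of highest mean over all samples. This gave 118 of the 6765 named genes on the array. Of these, 21 were mitochondrial carriers of the SLC25 family, which are described apart. The other 97 fell into 14 classes by the substrate their family carries, and 1 of those classes holds 3 genes named after a transporter without being transporters.

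The samples were from pigs, all of them offspring of German Landrace gilts kept on a gestational low protein diet, and each array held RNA of 1 sample. There were 5 samples from fetuses at 94 days post conception (94 dpc) and 6 samples each from pigs at 1, 28 and 188 days after birth (1, 28 and 188 dpn). With 1 diet in all samples, the arrays compare ages and hold no contrast of diets. Each stage was collected from offspring of 3 gilts whose identity the labels do not give, so some animals of a stage shared a dam and the p-values, which treat animals as independent, may be too small. The samples carry the label liver, whereas the title of the series names muscle. Skeletal muscle genes (9 measured of 10 listed) had a median percentile among all probe sets of 99.6 to 99.9 in the 23 samples, and hepatocyte genes (10 of 11) one of 17.5 to 92.7.

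SLC proteins move sugars, amino acids, metals, vitamins, ions and other small molecules across the plasma membrane and the membranes of organelles, mostly driven by gradients rather than by splitting ATP. The SLC25 carriers sit in the inner membrane of the mitochondrion and pass ADP, ATP, phosphate, carboxylates, aspartate, glutamate and acylcarnitines between matrix and cytosol. In muscle, the insulin-responsive glucose transporter SLC2A4, the lactate exporter SLC16A3, the creatine transporter SLC6A8 and the ADP/ATP carrier SLC25A4 are textbook members, whereas SLC2A1 is the glucose transporter of human red cells, of vessels and of fetal tissue.

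Signals are linear intensities without detection calls. Changes are differences of stage means of log2(signal + 16) from the limma fit over all 23 arrays, given ± SE. A gene was called higher or lower at a Benjamini-Hochberg adjusted p under 0.05 over 23999 probe sets, and "rose" and "fell" are used of called genes alone. Because 16 was added, folds understate the change of dim genes. A ± after a mean signal is the SD over the 5 fetal samples or over the 6 of a later stage. Array medians ran from 120.8 to 168.8. Fetal arrays had the highest medians (lowest 148.9), and no later array exceeded 148.2. Counts with each array centred on its median are given below. The 5′ to 3′ ratio of the GAPDH control probe sets, which falls where the RNA or its copies are incomplete, was 0.0868 to 0.148 in 3 of the 6 samples at 1 dpn (replicates 2, 4 and 5, the low-ratio samples) and 1.09 to 1.29 in the other 20 samples. For actin the ratio was 1.01, 0.817 and 0.985 in the low-ratio samples and 1.21, 1.2 and 0.999 in newborn replicates 1, 3 and 6. For Dap it was 0.0657, 0.0673 and 0.0717 in the former and 0.174, 0.361 and 0.184 in the latter. Among the 20 samples of higher GAPDH ratio, the actin ratio ran from 0.82 to 1.61. For most named genes, changes to or from 1 dpn are also given without the 3 low-ratio samples. The part of RNA quality, labelling or the array in those changes was not tested. Dap ratios also followed stage after birth: no array of 28 dpn exceeded 0.0977, and none of 188 dpn fell below 0.264. Fetal arrays spanned both levels, with a lowest ratio of 0.0622 and a highest of 0.409. What share such array differences have in the changes between stages was not tested. In tissue samples, fewer cells of a type and less RNA per cell cannot be told apart. Markers of other cell types moved with stage. The summed signal of the 9 of 9 endothelial genes was 10230 to 17080 at 94 dpc, 4133 to 6377 at 1 dpn, 7289 to 10340 at 28 dpn and 3544 to 4850 at 188 dpn. For the 6 of 8 fibroblast genes the sums were 40650 to 59000, 10480 to 29510, 13470 to 32470 and 9904 to 15900, and for the 5 of 10 macrophage genes 2644 to 3804, 1032 to 4113, 4305 to 12690 and 1202 to 2815. The 5 of 14 erythroid genes summed to 1378 to 1875, 876.3 to 2107, 1268 to 2862 and 667.4 to 964.5. The skeletal muscle genes summed to 289100 to 334600 at 94 dpc and 331700 to 585500 at 1 dpn. Their sums were 408800 to 716100 at 28 dpn and 595700 to 797500 at 188 dpn. Of those 9 genes, 1 was called higher at birth and 9 over the whole series, with a median log2 change of 0.97. No signal of an SLC gene was 0, and the part of these cells, muscle fibres included, in the changes below was not tested.

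Between 94 dpc and 1 dpn, 18 SLC genes were called higher and 19 lower, or 31.4% of the 118, where 33.1% of all named genes were called. From 1 to 28 dpn there were 11 higher and 7 lower (15.3%, against 24.1% of all genes). From 28 to 188 dpn 5 were higher and 12 lower (14.4%, against 18.3%). Between the ends of the series, 188 dpn against 94 dpc, 19 were higher and 26 lower (38.1%, against 46.9%). By direction, rises took in 13.7%, 13.5%, 5.78% and 19.5% of all genes in these 4 comparisons and falls 19.4%, 10.6%, 12.5% and 27.4%. Among genes above the median signal of all probe sets, the shares called were 42.9%, 22.9%, 20% and 54.3% of 70 SLC genes and 39.8%, 29.5%, 22.7% and 55.9% of all genes. The median log2 change of the SLC genes in the 4 comparisons was 0.11, -0.07, -0.02 and 0.15, and that of all named genes was -0.06, 0.03, -0.06 and -0.08. Comparisons that have a stage in common share those samples. The SLC genes were often dim, with 48 of 118 below the median of all probe sets and 28 with stage means under 100 throughout.

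The balance of rises and falls depended on how arrays were scaled. As deposited, 48.6% of the genes called at birth were higher, against 69.7% after quantile normalization (23 higher, 10 lower) and 69.4% when each array was centred on its own median (25 higher, 11 lower). For 188 dpn against 94 dpc the shares were 42.2%, 58.3% (28 higher, 20 lower) and 63% (34 higher, 20 lower). From 1 to 28 dpn they were 61.1%, 50% (7 and 7) and 44.4% (8 and 10), and from 28 to 188 dpn 29.4%, 40% (6 and 9) and 41.7% (5 and 7). Centring moved the median change of all named genes from -0.06 to 0.22 at birth and from -0.08 to 0.22 over the whole series. Without the 3 samples of low GAPDH ratio, birth had 15 higher and 15 lower SLC genes, of which 14 and 12 were shared with the calls on all samples, and 33% of all genes were called. From 1 to 28 dpn there were then 6 higher and 8 lower, with 5 and 4 shared, and 19.5% of all genes were called.

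**Figure D1:**
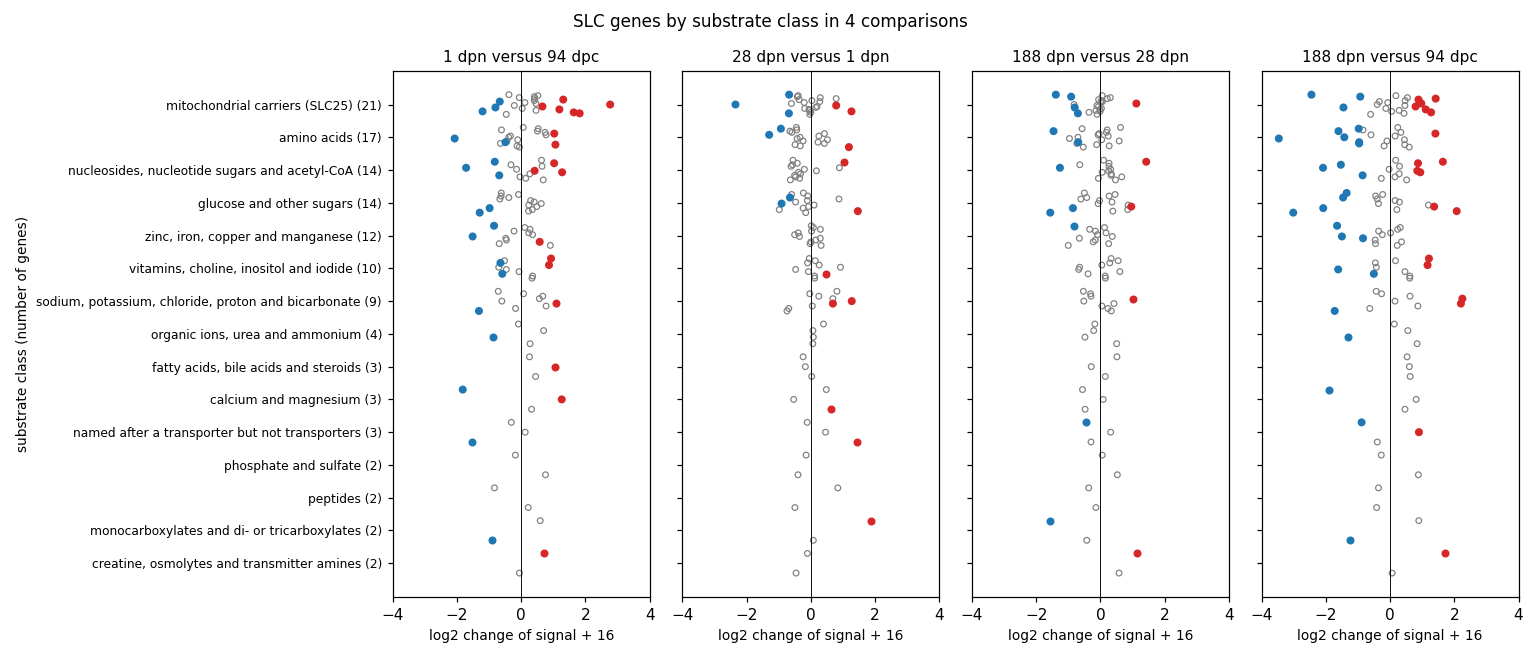
Log2 change of each of the 118 SLC genes (x axis, log2 of signal + 16) by substrate class (y axis, number of genes in parentheses) in the 4 comparisons. Filled red and blue points are genes called higher and lower, and open grey points were not called; SLC25 carriers include the largest rise at birth (2.77, SLC25A33), and the amino acid and sugar classes hold the largest falls between 94 dpc and 188 dpn (-3.47, SLC38A1, and -3.02, SLC2A1).

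Among the 21 mitochondrial carriers, 6 rose and 3 fell around birth, and their median log2 change of 0.41 stood beside 0.11 for all SLC genes. From 1 to 28 dpn 2 rose and 3 fell, and from 28 to 188 dpn 1 rose and 4 fell. Over the whole series 6 rose and 3 fell with a median of 0.28. The shares called were 42.9%, 23.8%, 23.8% and 42.9% of the 21, against 33.1%, 24.1%, 18.3% and 46.9% of all named genes. Around birth 28.6% were higher and 14.3% lower, against 13.7% and 19.4% of all named genes. The counts were again 6 and 3 around birth without the low-ratio samples. They were then 2 and 4 from 1 to 28 dpn. Whether this differs from the other SLC genes was not tested. The carriers that rose around birth exchange ADP and ATP (SLC25A4), phosphate (SLC25A3), oxoglutarate and malate (SLC25A11), aspartate and glutamate (SLC25A12), carnitine and acylcarnitine (SLC25A20) and pyrimidine nucleotides (SLC25A33). The 3 that fell were SLC25A14, SLC25A24 and SLC25A38.

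The 3 ADP/ATP carriers took different courses. SLC25A4, the form of heart and skeletal muscle, read 19336, 20197, 19190, 21317 and 17853 in the 5 samples at 94 dpc and 38777 to 56055 with a median of 48453 at 1 dpn. At 28 dpn its signals were 30748 to 46650 with a median of 37599, and at 188 dpn 32017 to 40824 with a median of 35444. No fetal sample reached the lowest sample after birth, and the 3 later stages overlapped. It rose 2.48-fold at birth (1.31 ± 0.15, adjusted p = 1.2e-06 in limma) and remained 1.84-fold above the fetal level at 188 dpn (0.88 ± 0.15, adjusted p = 4.9e-05). Without the 3 low-ratio samples the change at birth was 1.28 at adjusted p = 2.8e-05. The later steps were not called, at -0.37 ± 0.14, adjusted p = 0.082, and -0.06 ± 0.14, adjusted p = 0.86. The first of them was called lower with centred arrays (adjusted p = 0.026) and without dimmer probe sets (adjusted p = 0.03). It was also called with trend and robust variance (adjusted p = 0.031) and without 1 dpn replicate 3 (adjusted p = 0.042). The skeletal muscle genes rose over the series by a median of 0.97, beside the 0.88 of SLC25A4.

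SLC25A6, a form found in many tissues, went the other way. It read 38952, 32814, 33450, 36596 and 34177 at 94 dpc and 19488 to 39015 with a median of 26556 at 1 dpn. The range was 13766 to 18972 with a median of 17281 at 28 dpn and 5315 to 7470 with a median of 6554 at 188 dpn. Fetal and newborn samples overlapped, every sample at 28 dpn lay below every newborn one, and every sample at 188 dpn lay below all those of 28 dpn. At birth the change was not called (-0.38 ± 0.18, adjusted p = 0.13, and -0.04 at adjusted p = 0.89 without the 3 low-ratio samples, which were the lowest at 1 dpn). It was called lower under quantile normalization (-0.74 at adjusted p = 0.00058) and without 1 dpn replicate 1 (-0.49 at adjusted p = 0.039). It then fell 1.60-fold from 1 to 28 dpn (-0.68 ± 0.17, adjusted p = 0.0075) and 2.62-fold from 28 to 188 dpn (-1.39 ± 0.17, adjusted p = 8.8e-06). The fall to 28 dpn was called with and without the low-ratio samples, at -1.01 at adjusted p = 0.00032 without them, and had adjusted p = 0.061 when the fit held those stages alone. Over the whole series it fell 5.46-fold (-2.45 ± 0.18, adjusted p = 2.6e-10). SLC25A5, the form of dividing cells, read 895, 763, 761, 779.6 and 979 at 94 dpc. The newborn samples read 622 to 1681 with a median of 1205, those of 28 dpn 746 to 907 with a median of 819 and those of 188 dpn 243 to 1077 with a median of 397. At 188 dpn 5 samples lay low and 1 lay within the newborn range. It fell over the whole series (-0.93 ± 0.29, adjusted p = 0.014), a call that both other scalings ended (adjusted p = 0.092 and 0.095). Its fall from 28 to 188 dpn (-0.91 ± 0.28, adjusted p = 0.028) was not called without 1 of 28 dpn replicates 3 and 5 or 188 dpn replicates 2, 4 and 5, with adjusted p = 0.078 at most. These 3 genes are close copies of one another, so that a probe set may also bind the RNA of another copy, which the files cannot separate.

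**Figure D2:**
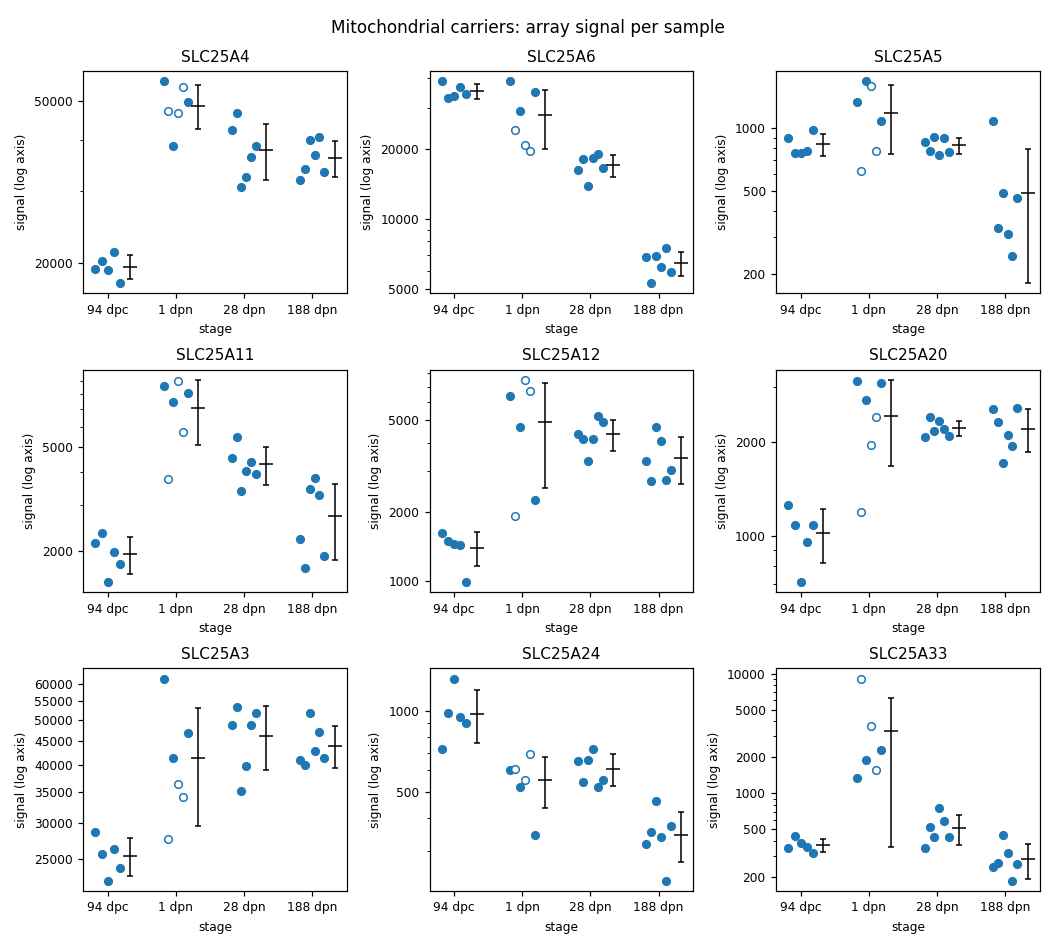
Signal of 9 mitochondrial carriers in each of the 23 samples (y axis, log scale) by stage (x axis), with the mean ± SD as a black mark beside each group. Open points are the 3 samples at 1 dpn of low GAPDH ratio; SLC25A4 steps up at birth from 17853 to 21317 in the fetal samples, SLC25A6 falls from stage to stage after birth, and SLC25A33 is high at 1 dpn alone.

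The carriers of the malate-aspartate shuttle, which brings the electrons of cytosolic NADH into mitochondria, both rose at birth. SLC25A11, the oxoglutarate/malate carrier, read 2131, 2329, 1517, 1974 and 1779 at 94 dpc and 3789.5 to 9003 with a median of 7777 at 1 dpn. All newborn samples lay above all fetal ones, a rise of 3.53-fold (1.82 ± 0.24, adjusted p = 6.7e-06, and 2.05 at adjusted p = 9.5e-06 without the low-ratio samples). It then fell in both later steps, to 4297 ± 705 at 28 dpn (-0.68 ± 0.23, adjusted p = 0.042) and 2729 ± 890 at 188 dpn (-0.70 ± 0.23, adjusted p = 0.042), and the level at 188 dpn was not called against the fetal one (0.43 ± 0.24, adjusted p = 0.17). The fall to 28 dpn was not called in the fit of 9 single left-out samples (1 dpn replicates 1, 3, 4 and 6 and 28 dpn replicates 1, 3, 4, 5 and 6, adjusted p = 0.098 at most), but was called without the 3 low-ratio samples at -0.92 at adjusted p = 0.015. SLC25A12, the calcium-regulated aspartate/glutamate carrier, read 1614, 1492, 1449, 1435 and 997 at 94 dpc and 1923 to 7498 with a median of 5515 at 1 dpn. Signals of 28 dpn ran from 3322 to 5206 with a median of 4256, and those of 188 dpn from 2722 to 4686 with a median of 3178. It rose 3.11-fold at birth (1.64 ± 0.29, adjusted p = 0.00022, and 1.55 at adjusted p = 0.00037 without the low-ratio samples) and was still 2.42-fold above the fetal level at 188 dpn (1.27 ± 0.29, adjusted p = 0.0013), with no fetal sample within the range of any later stage.

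SLC25A20, the carnitine/acylcarnitine carrier through which long-chain fatty acids enter for oxidation, read 1256, 1087, 713, 954 and 1084 at 94 dpc and 1196 to 3145 with a median of 2568 at 1 dpn. The lowest newborn sample lay within the fetal range, and the 3 low-ratio samples were the lowest of the 6. It rose 2.28-fold (1.19 ± 0.21, adjusted p = 0.00021, and 1.56 at adjusted p = 7.4e-06 without those 3) and stayed at 2211 ± 129 at 28 dpn and 2199.9 ± 339.8 at 188 dpn, 2.16-fold above the fetal level (1.11 ± 0.21, adjusted p = 0.00021). SLC25A3, which brings in the phosphate for ATP synthesis and is named here after its values were seen, had mean signals of 25410 ± 2366, 41336 ± 11839, 46322 ± 7221 and 44065 ± 4605 at the 4 stages and rose 1.58-fold at birth (0.66 ± 0.18, adjusted p = 0.0091, and 0.96 at adjusted p = 0.00059 without the low-ratio samples). Its second, dimmer probe set rose as well, by 1.51 (adjusted p = 0.0031). That probe set then fell to 28 dpn, by -1.40 (adjusted p = 0.0065). The brighter one was not called in that step (0.20 ± 0.17, adjusted p = 0.51).

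SLC25A33, a carrier of pyrimidine nucleotides, had a peak on the day after birth. It read 349, 439, 385, 353 and 318 in the fetal samples and 1337 to 9094 with a median of 2095 in the newborn ones. It later ranged from 348 to 754 with a median of 475 at 28 dpn and from 186 to 449 with a median of 257 at 188 dpn. No newborn sample overlapped another stage, and 1 newborn sample, of low GAPDH ratio, stood far above the other 5. It rose 6.82-fold (2.77 ± 0.35, adjusted p = 3.8e-06) and fell 5.09-fold by 28 dpn (-2.35 ± 0.33, adjusted p = 3.4e-05). Without the 3 low-ratio samples these changes were 2.25 at adjusted p = 7.1e-06 and -1.82 at adjusted p = 0.00012. A second probe set of the gene, with a mean signal of 23.8, was not called in any comparison. SLC25A36, a related nucleotide carrier, rose from 28 to 188 dpn instead (90.1 ± 33.4 to 213 ± 70.4, 1.12 ± 0.29, adjusted p = 0.01).

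SLC25A24, the calcium-regulated carrier of ATP-magnesium against phosphate, read 725, 983, 1322, 948 and 900.2 at 94 dpc. After birth it ranged from 344 to 693 with a median of 579 at 1 dpn, 522 to 725 with a median of 603 at 28 dpn and 233 to 460.1 with a median of 345 at 188 dpn. It fell at birth (-0.80 ± 0.20, adjusted p = 0.0036, and -0.98 at adjusted p = 0.0034 without the low-ratio samples) and from 28 to 188 dpn (-0.80 ± 0.19, adjusted p = 0.005), 2.74-fold in all (-1.45 ± 0.20, adjusted p = 2.5e-06), with no overlap between the stages of these comparisons. The second probe set of the gene, at a mean signal of 46.1, was called in none, and the mean of both ended the call from 28 to 188 dpn. SLC25A14, a carrier related to the uncoupling proteins, dipped at 1 dpn, from 129.9 ± 38.1 to 50.5 ± 23.1 (-1.20 ± 0.29, adjusted p = 0.0028) and back to 136 ± 36.7 at 28 dpn (1.26 ± 0.27, adjusted p = 0.0022). These changes were -0.79 at adjusted p = 0.038 and 0.85 at adjusted p = 0.037 without the low-ratio samples. The GAPDH ratio as a covariate gave 0.87 for the second, at adjusted p = 0.076. The other probe set changed by 0.04 (adjusted p = 0.96) and 0.09 (adjusted p = 0.89). SLC25A38, the glycine carrier of heme synthesis, which was named after its values were seen, fell at birth (474 ± 111 to 293 ± 65.2, -0.67 ± 0.18, adjusted p = 0.0084, and -0.78 at adjusted p = 0.01 without the low-ratio samples). Of the 5 erythroid genes, 1 was called lower in that step. SLC25A46, an outer membrane protein, was dim at 94 dpc (29.7 ± 32.2) and higher at 188 dpn (97.7 ± 49.8, 1.42 ± 0.44, adjusted p = 0.013), with overlapping samples. SLC25A30 rose from 1 to 28 dpn (0.79 ± 0.27, adjusted p = 0.049, and 1.04 at adjusted p = 0.012 without the low-ratio samples), a call that held in the fits without 1 dpn replicate 1, 4 or 5, 28 dpn replicate 2 or 188 dpn replicate 1 and ended in the other 18 fits that left out 1 sample, with adjusted p = 0.12 at most (without 1 dpn replicate 2). The 7 SLC25 genes called in no comparison were SLC25A1, the citrate carrier, SLC25A17, SLC25A21, SLC25A37, the iron importer of mitochondria, SLC25A39, SLC25A48 and SLC25A51. A second probe set of SLC25A37, at a mean signal of 250.6, was called lower at birth (-0.98, adjusted p = 0.045). SLC25A1 was called lower from 1 to 28 dpn without the low-ratio samples (-0.63 at adjusted p = 0.046).

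Of the 14 transporters of glucose and other sugars, 2 fell at birth and none rose; 1 rose and 2 fell from 1 to 28 dpn, 1 rose and 2 fell from 28 to 188 dpn, and 2 rose and 4 fell over the whole series. Called in the 4 comparisons were 14.3%, 21.4%, 21.4% and 42.9% of the 14, against 33.1%, 24.1%, 18.3% and 46.9% of all named genes. None of the 14 was called at birth without the low-ratio samples. In the next step 1 then rose and 1 fell. The glucose transporters of fetal and general tissue, SLC2A1 and SLC2A3, fell, while the insulin-responsive SLC2A4 and its relative SLC2A12 were called higher in later steps. SLC2A1 gave 559, 403, 341, 401 and 403 at 94 dpc and 66.6 to 298 with a median of 185 at 1 dpn. Samples of 28 dpn gave 74.3 to 191 with a median of 161, and the oldest 14.9 to 90.4 with a median of 30.5. All fetal samples lay above all later ones, and 1 sample at 188 dpn lay within the range of 28 dpn. Its total fall was 8.09-fold (-3.02 ± 0.32, adjusted p = 8.7e-08), made of a step at birth (-1.29 ± 0.32, adjusted p = 0.0043) and a step from 28 to 188 dpn (-1.56 ± 0.31, adjusted p = 0.0012). At 1 dpn its signals were 66.6 to 175 in the 3 samples of low GAPDH ratio and 196 to 298 in the other 3, and without the former the step at birth was -0.81 at adjusted p = 0.088. SLC2A3, a high-affinity glucose transporter, read 595, 1000.3, 956, 429.9 and 587 at 94 dpc and 182 to 619.5 with a median of 342 at 1 dpn. The range was 159 to 399.6 with a median of 291 at 28 dpn and 103 to 186 with a median of 151 at 188 dpn. Neighbouring stages overlapped, but the fetal and the oldest samples did not, and the gene fell 4.24-fold between them (-2.08 ± 0.30, adjusted p = 6.5e-06). Its step at birth was -0.98 ± 0.30, adjusted p = 0.018, and -0.70 at adjusted p = 0.11 without the 3 low-ratio samples. That call also ended without 94 dpc replicate 2 (adjusted p = 0.06) or 3 (adjusted p = 0.059) and under both other scalings (adjusted p = 0.1). Its step from 28 to 188 dpn (-0.86 ± 0.29, adjusted p = 0.049) was called without 94 dpc replicate 2 or 4, 1 dpn replicate 2, 4, 5 or 6 or 28 dpn replicate 2, but not in the other 16 fits that left out 1 sample, with adjusted p = 0.11 at most (without 28 dpn replicate 6). The summed endothelial and fibroblast genes were also highest at 94 dpc and lowest at 188 dpn, and their part in these falls was not tested. Over the series 7 of the 9 endothelial and 5 of the 6 fibroblast genes were called lower, but single markers differed from the sums. VWF had means of 518, 625, 755 and 775 at the 4 stages and was called in no comparison. TIE1 (430, 41, 216 and 145) and THY1 (5525, 1517, 2744 and 2372) were among those lowest at 1 dpn. Of the 5 measured erythroid genes, 4 fell over the series and 3 from 28 to 188 dpn. Among them were ALAS2 (-2.71 ± 0.46, adjusted p = 0.00027), the first enzyme of heme synthesis in red cells, and AHSP (-1.85 ± 0.31, adjusted p = 2e-04), a chaperone of globin. The part of red cells in the fall of SLC2A1 was not tested.

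SLC2A4, which moves to the surface of muscle and fat cells under insulin, read 75.9, 155, 92.8, 132 and 112 at 94 dpc. The newborn samples read 99.8 to 299 with a median of 169, those of 28 dpn 74.7 to 326 with a median of 145 and those of 188 dpn 220.1 to 435 with a median of 304. Every sample at 188 dpn lay above every fetal one, and 1 sample at 28 dpn lay among those of 188 dpn. It rose 2.58-fold over the series (1.37 ± 0.29, adjusted p = 0.00063) and 1.94-fold from 28 to 188 dpn (0.96 ± 0.28, adjusted p = 0.023). The later step was not called without 28 dpn replicate 6 (adjusted p = 0.067), 188 dpn replicate 2 (adjusted p = 0.055) or 188 dpn replicate 3 (adjusted p = 0.058). The other 2 probe sets of the gene changed by 0.55 (adjusted p = 0.096) and 0.22 (adjusted p = 0.71) over the series, neither called. The brighter of them was called higher at birth, at 0.87 (adjusted p = 0.013), and changed by -0.13 (adjusted p = 0.8) from 28 to 188 dpn. With the mean of the 3 probe sets the later step was 0.41 at adjusted p = 0.29. SLC2A12, a further glucose transporter of muscle and fat, read 63, 72.5, 76.6, 106 and 68.6 at 94 dpc and 46.8 to 216 with a median of 84.4 at 1 dpn. Signals of 28 dpn ran from 208 to 398 with a median of 277, and those of 188 dpn from 256 to 439 with a median of 393. The samples of 28 and 188 dpn lay above all fetal ones, and 1 newborn sample reached into the range of 28 dpn. The gene rose 2.75-fold from 1 to 28 dpn (1.46 ± 0.23, adjusted p = 0.00013, and 1.16 at adjusted p = 0.0045 without the 3 low-ratio samples) and 4.21-fold in all (2.07 ± 0.24, adjusted p = 3.6e-07).

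**Figure D3:**
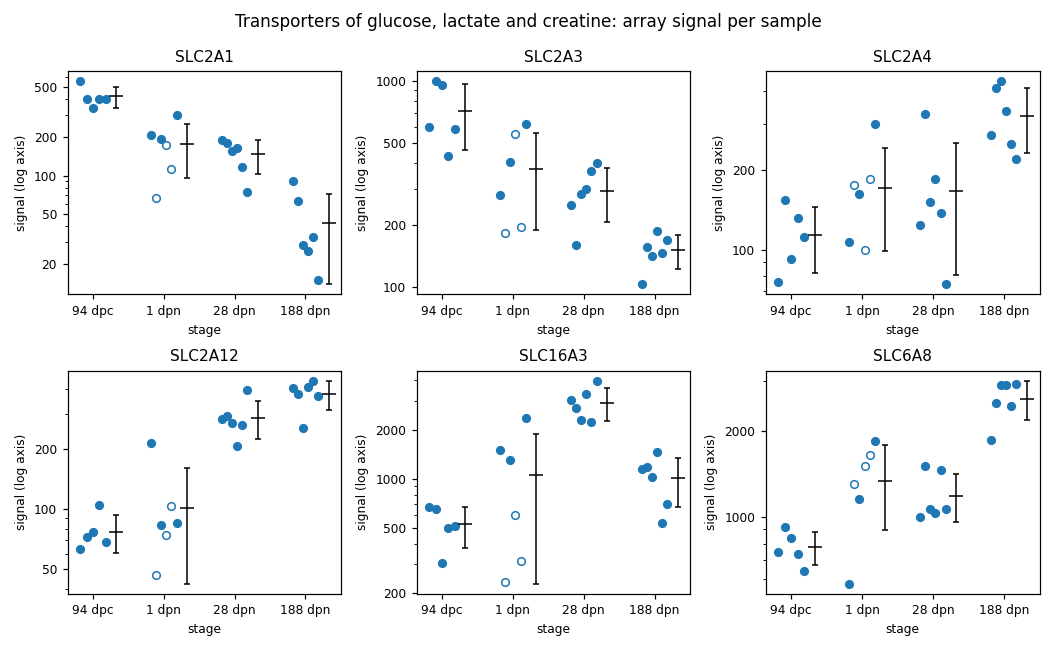
Signal of 6 transporters of glucose, lactate and creatine in each of the 23 samples (y axis, log scale) by stage (x axis), with the mean ± SD as a black mark beside each group and the 3 low-ratio samples at 1 dpn as open points. SLC2A1 and SLC2A3 are highest at 94 dpc, SLC2A4, SLC2A12 and SLC6A8 at 188 dpn, and SLC16A3 at 28 dpn, where its samples read 2212 to 3979.8 with a median of 2864.

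SLC50A1, a sugar transporter of internal membranes, fell over the series from 689 ± 20 to 250.2 ± 87.3 (-1.46 ± 0.21, adjusted p = 6.9e-06) with a called step from 1 to 28 dpn (-0.65 ± 0.20, adjusted p = 0.029, and -0.85 at adjusted p = 0.02 without the low-ratio samples). That step was not called without 1 dpn replicate 4 (adjusted p = 0.057), 1 dpn replicate 6 (adjusted p = 0.059) or 28 dpn replicate 2 (adjusted p = 0.082). SLC2A8, an intracellular hexose transporter, fell from 297 ± 67.2 at 1 dpn to 152 ± 45.2 at 28 dpn (-0.91 ± 0.26, adjusted p = 0.018), and without the low-ratio samples the change was -0.79 at adjusted p = 0.13. SLC5A4, named after its values were seen, fell from 863 ± 159 at 94 dpc to 351 ± 136 at 188 dpn (-1.35 ± 0.37, adjusted p = 0.0049). The hepatic glucose transporter SLC2A2 was dim at every stage, with means of 44.8, 59.4, 21.3 and 46.4, and it and the other 6 sugar transporters were called in no comparison.

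The monocarboxylate class held 2 genes. SLC16A3, which exports lactate from glycolytic muscle fibres, read 667, 652, 304, 496 and 510.4 in the fetal samples and 235 to 2360.5 with a median of 950.4 in the newborn ones. It later ranged from 2212 to 3979.8 with a median of 2864 at 28 dpn and from 536 to 1454 with a median of 1088 at 188 dpn. All samples at 28 dpn lay above all those at 94 dpc and at 188 dpn, and the newborn samples were split. They read 235 to 601 in the 3 samples of low GAPDH ratio and 1300 to 2361 in the other 3, so that the latter lay above all fetal samples, while 2 of the former lay within the fetal range and 1 below it. On all samples the gene rose from 1 to 28 dpn (1.86 ± 0.42, adjusted p = 0.0029) and not at birth (0.59 ± 0.44, adjusted p = 0.35). Without the low-ratio samples it rose at birth, by 1.68 at adjusted p = 0.00057, and the change from 1 to 28 dpn was 0.77 at adjusted p = 0.11. The fall of 2.95-fold from 28 to 188 dpn (-1.56 ± 0.42, adjusted p = 0.013) uses neither set of newborn samples for its means. Over the whole series the change was not called (0.89 ± 0.44, adjusted p = 0.12). It was called higher under quantile normalization (adjusted p = 0.034), with centred arrays (adjusted p = 0.036) and without the low-ratio samples (adjusted p = 0.0094). The summed macrophage genes, too, were highest at 28 dpn. Of the 5 measured, AIF1, C1QA and C1QC were called higher from 1 to 28 dpn and lower from 28 to 188 dpn. CD163 and CD14 were called in neither step, and CD163 had a mean of 426 at 1 dpn and 365 at 28 dpn. The part of macrophages in the course of SLC16A3 was not tested. SLC16A13, a less studied relative, fell at birth from 365 ± 87.2 to 186 ± 43.2 (-0.91 ± 0.22, adjusted p = 0.0031, and -0.84 at adjusted p = 0.02 without the low-ratio samples) and reached 144 ± 39.5 at 188 dpn (-1.26 ± 0.22, adjusted p = 6.2e-05). Quantile normalization ended its call at birth (adjusted p = 0.058).

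SLC6A8, which takes up the creatine that muscle phosphorylates, read 752, 921, 839, 735 and 643 at 94 dpc. After birth it ranged from 579.7 to 1844 with a median of 1403 at 1 dpn, 994 to 1505 with a median of 1064 at 28 dpn and 1862 to 2939 with a median of 2714 at 188 dpn. Every sample at 188 dpn lay above every sample of 28 dpn and of 94 dpc. It rose 2.18-fold from 28 to 188 dpn (1.13 ± 0.22, adjusted p = 0.0011) and 3.28-fold over the series (1.71 ± 0.23, adjusted p = 2.5e-06). Its rise at birth (0.69 ± 0.23, adjusted p = 0.029) was 0.47 at adjusted p = 0.24 without the low-ratio samples and was not called without any 1 of 94 dpc replicates 1, 4 and 5 and 1 dpn replicates 4, 5 and 6, with adjusted p = 0.076 at most. Of the 3 carriers of fatty acids and bile acids, SLC27A1, a fatty acid transport protein of muscle and fat, was the called one. It gave 128, 79.9, 75.3, 75.6 and 57.8 at 94 dpc and 82.6 to 369 with a median of 188 at 1 dpn. Samples of 28 dpn gave 121 to 309.8 with a median of 153, and the oldest 78.1 to 170.3 with a median of 151. The newborn samples ranged widely and overlapped the fetal ones. It rose 2.08-fold at birth (1.06 ± 0.30, adjusted p = 0.012, and 1.11 at adjusted p = 0.018 without the low-ratio samples), and the level at 188 dpn was not called against 94 dpc (0.60 ± 0.30, adjusted p = 0.13). That change was called higher under quantile normalization (0.80 at adjusted p = 0.049), with centred arrays (0.89 at adjusted p = 0.026) and with array weights (0.63 at adjusted p = 0.046).

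Of the 17 amino acid transporters, 2 rose and 2 fell at birth, and 1 rose and 2 fell from 1 to 28 dpn. From 28 to 188 dpn 2 fell, and over the series 1 rose and 6 fell. As shares these calls were 23.5%, 17.6%, 11.8% and 41.2%, against 33.1%, 24.1%, 18.3% and 46.9% of all named genes. SLC38A1, a sodium-coupled carrier of glutamine and small neutral amino acids, had the largest fall of all SLC genes. It read 614, 598, 645, 590.1 and 637 at 94 dpc and 12.7 to 377 with a median of 169 at 1 dpn. The range was 46.3 to 129 with a median of 114 at 28 dpn and 15.5 to 62.6 with a median of 59.7 at 188 dpn. The 5 fetal samples lay close together and above every later sample, 1 newborn sample was far below the other 5, and 2 of the oldest samples lay below the other 4. It fell 4.20-fold at birth (-2.07 ± 0.44, adjusted p = 0.0011, and -2.67 at adjusted p = 0.00046 without the low-ratio samples) and 11-fold in all (-3.47 ± 0.44, adjusted p = 1e-06). Of its 2 other probe sets, 1 was called lower over the series at -2.61 (adjusted p = 8.6e-06) and the dimmer 1 changed by 0.07 (adjusted p = 0.9). SLC1A5, the main glutamine exchanger of many growing cells, had means of 1174 ± 114, 853 ± 215, 973 ± 108 and 596 ± 76.7 at the 4 stages. It fell from 28 to 188 dpn (-0.69 ± 0.17, adjusted p = 0.0074) and over the series (-0.96 ± 0.18, adjusted p = 0.00014), in both cases without overlap. Its call at birth (-0.49 ± 0.18, adjusted p = 0.045) held without 1 dpn replicate 3, 4, 5 or 6, 28 dpn replicate 4 or 188 dpn replicate 3 or 6, and ended in the other 16 fits that left out 1 sample (adjusted p = 0.1 at most, without 1 dpn replicate 2) and under both other scalings. Without the 3 low-ratio samples together the change was -0.37 at adjusted p = 0.13, and with the GAPDH ratio as covariate -0.33 at adjusted p = 0.27.

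SLC3A2, the heavy chain that partners several amino acid exchangers, went against this direction. It read 352, 285, 268, 214 and 223 at 94 dpc. The newborn samples read 419 to 674 with a median of 569.7, those of 28 dpn 577 to 862 with a median of 818 and those of 188 dpn 550.5 to 986 with a median of 721. All samples after birth lay above all fetal ones. It rose 2.04-fold at birth (1.03 ± 0.18, adjusted p = 0.00016, and 0.95 at adjusted p = 0.0025 without the low-ratio samples) and 2.66-fold over the series (1.41 ± 0.18, adjusted p = 1.1e-06). Of its light chains, SLC7A7, which exports cationic amino acids, fell from 332 ± 149 at 1 dpn to 157 ± 43.6 at 28 dpn (-0.93 ± 0.29, adjusted p = 0.028, and -0.57 at adjusted p = 0.29 without the low-ratio samples) and lay at 107 ± 59 at 188 dpn against 210.2 ± 43.7 at 94 dpc (-0.98 ± 0.30, adjusted p = 0.013). The step to 28 dpn also lost its call without any 1 of 1 dpn replicates 2 and 5 and 28 dpn replicates 3, 4 and 5 (adjusted p = 0.075 at most). The other probe set of SLC7A7 changed by -0.04 (adjusted p = 0.96) there, and the mean of both by -0.49 at adjusted p = 0.26.

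SLC7A1, the widely expressed importer of arginine and lysine, read 879, 950.1, 1066, 886 and 906 at 94 dpc and 728 to 2129 with a median of 1411 at 1 dpn. Signals of 28 dpn ran from 583 to 1541 with a median of 777, and those of 188 dpn from 216 to 357 with a median of 306. The oldest samples lay below all samples of the other stages, and at 1 dpn the 3 low-ratio samples were the highest. It fell 2.75-fold from 28 to 188 dpn (-1.46 ± 0.26, adjusted p = 0.00037) and 3.05-fold over the series (-1.61 ± 0.27, adjusted p = 3.8e-05). SLC38A10 fell over the series from 584 ± 105 to 220.4 ± 98.5 (-1.43 ± 0.29, adjusted p = 0.00037) with no single step called. SLC1A3, a glutamate transporter, was dim and rose at birth from 54.9 ± 30.1 to 126 ± 41 (1.07 ± 0.27, adjusted p = 0.0051, and 1.22 at adjusted p = 0.0078 without the low-ratio samples). SLC3A1, the heavy chain of the cystine transporter of kidney and gut, fell from 373 ± 118 at 1 dpn to 139 ± 31.5 at 28 dpn (-1.30 ± 0.39, adjusted p = 0.022). That change was -1.0 at adjusted p = 0.2 without the low-ratio samples, and not called without 1 dpn replicate 2 (adjusted p = 0.052) or 4 (adjusted p = 0.051). The other probe set of SLC3A1 had a log2 change that rounds to 0 (adjusted p = 1), and the mean of both was -0.65 at adjusted p = 0.068. SLC1A1, another glutamate transporter, rose in the same step (139 ± 87 to 267 ± 56.8, 1.18 ± 0.38, adjusted p = 0.036). Of its 5 probe sets no other was called there, and the call ended without the low-ratio samples (adjusted p = 0.063) and without any 1 of 6 samples (1 dpn replicates 3 and 4 and 28 dpn replicates 1, 2, 4 and 6, adjusted p = 0.086 at most).

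**Figure D4:**
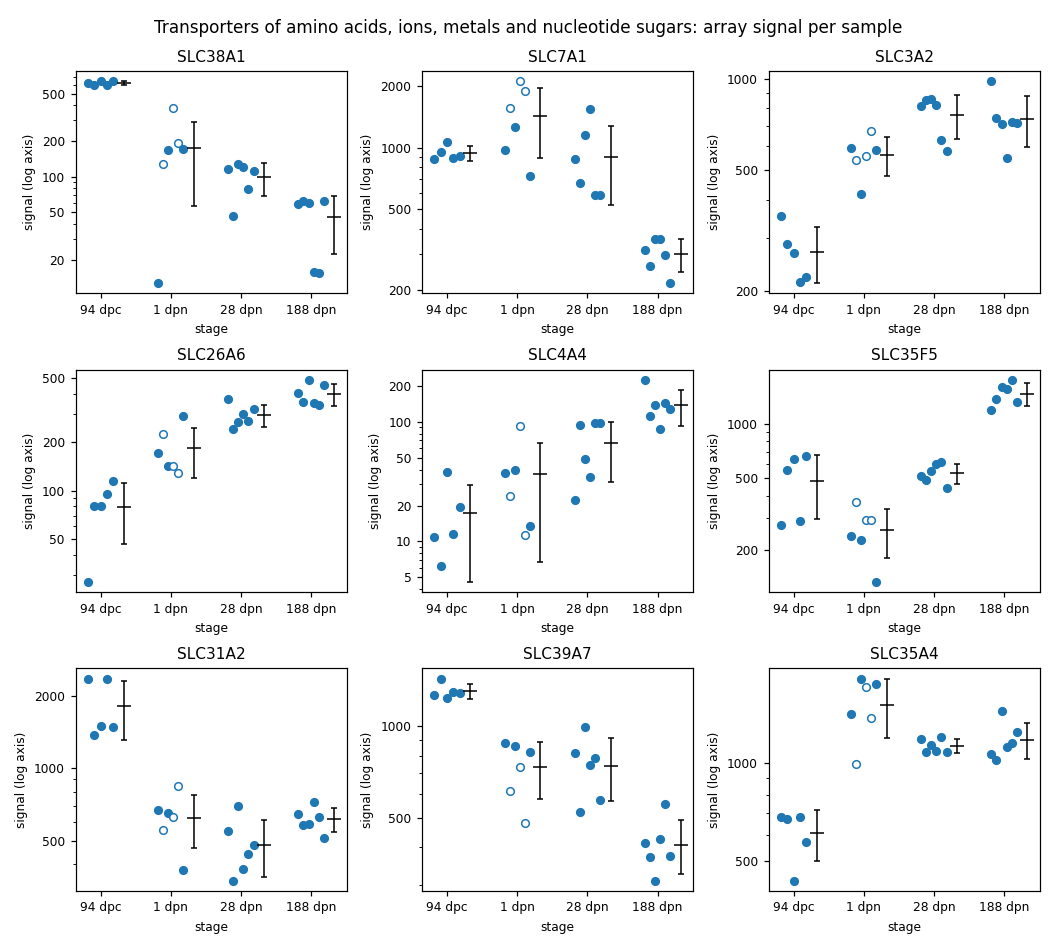
Signal of 9 transporters of amino acids, ions, metals and nucleotide sugars in each of the 23 samples (y axis, log scale) by stage (x axis), with the mean ± SD as a black mark beside each group and the 3 low-ratio samples at 1 dpn as open points. SLC38A1 falls from fetal signals of 590 to 645, SLC3A2, SLC26A6 and SLC35A4 step up at birth, SLC31A2 and SLC39A7 step down, and SLC35F5 is lowest at 1 dpn and highest at 188 dpn.

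Among the 9 carriers of sodium, potassium, chloride, protons and bicarbonate, 1 rose and 1 fell at birth (1 and 0 without the low-ratio samples). Over the series 2 rose and 1 fell. On all samples these calls were 22.2% and 33.3% of the 9, against 33.1% and 46.9% of all named genes. SLC26A6, which exchanges chloride for bicarbonate and oxalate, read 27.1, 79.8, 80.6, 94.7 and 115 in the fetal samples and 128 to 289.9 with a median of 157 in the newborn ones. It later ranged from 242 to 371 with a median of 286 at 28 dpn and from 341 to 491 with a median of 381 at 188 dpn. Every sample after birth lay above every fetal one. It rose 2.14-fold at birth (1.1 ± 0.24, adjusted p = 0.0015, and 1.22 at adjusted p = 0.0038 without the low-ratio samples) and 4.61-fold over the series (2.20 ± 0.24, adjusted p = 1.3e-07), while its step from 1 to 28 dpn (0.69 ± 0.23, adjusted p = 0.043) was 0.56 at adjusted p = 0.21 without the low-ratio samples and lost its call without any 1 of 94 dpc replicate 2, 1 dpn replicates 1, 3, 4 and 5 and 28 dpn replicates 1, 3, 4, 5 and 6 (adjusted p = 0.094 at most). SLC4A4, the electrogenic sodium-bicarbonate cotransporter, was dim before birth and read 10.9, 6.26, 38.2, 11.5 and 19.4 at 94 dpc. After birth it ranged from 11.3 to 91.9 with a median of 31 at 1 dpn, 22.2 to 97.8 with a median of 72 at 28 dpn and 87.9 to 226 with a median of 133 at 188 dpn. All oldest samples lay above all fetal ones. It rose 4.76-fold over the series (2.25 ± 0.35, adjusted p = 1.5e-05). The second probe set of the gene, with a mean signal of 32.0, changed by 0.21 (adjusted p = 0.74). The step of the brighter probe set from 28 to 188 dpn (1.00 ± 0.33, adjusted p = 0.047) held without 94 dpc replicate 3, 1 dpn replicate 1, 2, 4, 5 or 6, 28 dpn replicate 2, 5 or 6 or 188 dpn replicate 4, and lost its call in the other 13 fits that left out 1 sample (adjusted p = 0.12 at most, without 28 dpn replicate 1). In that step the second probe set changed by -0.65 (adjusted p = 0.33), and the mean of both by 0.17 at adjusted p = 0.79. Pseudocount 1 and trend and robust variance also ended the call.

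SLC12A4, a potassium-chloride cotransporter that regulates cell volume, fell at birth from 459 ± 106 to 186 ± 81.9 (-1.32 ± 0.35, adjusted p = 0.0071) and lay at 133 ± 49.8 at 188 dpn (-1.73 ± 0.35, adjusted p = 0.00037 against 94 dpc). Without the low-ratio samples, the step at birth was -0.84 at adjusted p = 0.12 and that from 1 to 28 dpn -1.22 at adjusted p = 0.036. SLC4A2, an anion exchanger, rose from 81.2 ± 49.9 at 1 dpn to 219.8 ± 114 at 28 dpn (1.27 ± 0.40, adjusted p = 0.028, and 1.18 at adjusted p = 0.1 without the low-ratio samples). That call also ended without any 1 of 1 dpn replicates 3, 4 and 6 and 28 dpn replicates 2, 3 and 4 (adjusted p = 0.081 at most). Of the 3 calcium and magnesium carriers, SLC8A1, the sodium-calcium exchanger of the plasma membrane, was dim throughout, at 1.95, 6.33, 11.3, 5.03 and 3.47 at 94 dpc and 6.32 to 97.8 with a median of 42.3 at 1 dpn, where it was called higher (1.26 ± 0.40, adjusted p = 0.022). The call ended without 1 dpn replicate 5 (adjusted p = 0.061) or 6 (adjusted p = 0.05 after rounding), and the change was 1.24 at adjusted p = 0.056 without the low-ratio samples. SLC8B1, the exchanger of the mitochondrial membrane, fell from 145 ± 36.3 to 42.8 ± 48.8 at birth (-1.82 ± 0.52, adjusted p = 0.011, and -1.27 at adjusted p = 0.15 without the low-ratio samples) and to 35.7 ± 36.6 at 188 dpn (-1.90 ± 0.52, adjusted p = 0.0054 against 94 dpc). SLC41A1, a magnesium carrier, was highest at 28 dpn (684 ± 219.8 at 1 dpn, 1019 ± 90.5 at 28 dpn, 0.62 ± 0.18, adjusted p = 0.022). Its 3 other probe sets were not called in that step, at 0.12, -0.27 and -0.47 (adjusted p = 0.88, 0.5 and 0.42). The mean of its probe sets changed by 7.0e-05 there. For the probe set used, the change was 0.50 at adjusted p = 0.091 without the low-ratio samples, and the call ended without 1 dpn replicate 4 (adjusted p = 0.064).

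Of the 12 zinc, iron, copper and manganese transporters, 1 rose and 2 fell at birth, none was called from 1 to 28 dpn, 1 fell from 28 to 188 dpn and 3 fell over the series. In the 4 comparisons these were 25%, 0%, 8.33% and 25% of the 12, against 33.1%, 24.1%, 18.3% and 46.9% of all named genes. Of the 12, none rose and 4 fell at birth without the low-ratio samples. The 2 genes then added, named after their values were seen, were SLC11A2, an importer of ferrous iron, at -1.56 at adjusted p = 0.0064, and SLC30A5, a zinc carrier of the secretory pathway, at -0.98 at adjusted p = 0.0077. Neither was called at birth on all samples. SLC11A2 read 216 to 313 in the low-ratio samples and 35.3 to 100.4 in the other newborn ones. On all samples its 3 other probe sets changed by 0.47, 0.54 and 0.51 at birth (adjusted p = 0.27, 0.2 and 0.42). Those of SLC30A5 changed by -0.09 (adjusted p = 0.89) and -0.93 (adjusted p = 0.018). SLC31A2, which takes part in the release of copper from endosomes, gave 2352, 1374, 1498, 2331 and 1475 at 94 dpc and 379.6 to 845 with a median of 639 at 1 dpn. Samples of 28 dpn gave 342 to 697 with a median of 459.9, and the oldest 513 to 723 with a median of 608. All fetal samples lay above all later ones, and the later stages overlapped. It fell 2.85-fold at birth (-1.51 ± 0.21, adjusted p = 1.5e-05, and -1.65 at adjusted p = 8.9e-05 without the low-ratio samples), and its other probe set was called lower as well, at -3.05 (adjusted p = 0.0011). SLC31A1, the copper importer of the plasma membrane, fell over the series (465 ± 77 to 258 ± 73.4, -0.84 ± 0.28, adjusted p = 0.021), a call ended without 94 dpc replicate 4 (adjusted p = 0.054) or 188 dpn replicate 5 (adjusted p = 0.059) and by both other scalings (adjusted p = 0.21 and 0.15). The mean of its probe sets ended that call too, and its other probe set changed by -0.40 (adjusted p = 0.52). SLC39A7, which releases zinc from the endoplasmic reticulum, read 1268, 1430.4, 1235, 1290.1 and 1279.6 at 94 dpc and 482 to 879 with a median of 778 at 1 dpn. The range was 522 to 994 with a median of 765 at 28 dpn and 311 to 553 with a median of 395 at 188 dpn. Fetal samples lay above all others. It fell at birth (-0.85 ± 0.19, adjusted p = 0.002, and -0.60 at adjusted p = 0.037 without the low-ratio samples) and again from 28 to 188 dpn (-0.82 ± 0.18, adjusted p = 0.0036), 3.14-fold in all (-1.65 ± 0.19, adjusted p = 3.1e-07). The zinc carrier SLC30A3 was the member called higher at birth (0.58 ± 0.21, adjusted p = 0.049), and this held without 94 dpc replicate 1, 1 dpn replicate 2 or 3, 28 dpn replicate 4 or 5 or 188 dpn replicate 5. It ended in the other 17 fits that left out 1 sample (adjusted p = 0.15 at most, without 94 dpc replicate 2) and without the low-ratio samples (adjusted p = 0.12). The other probe set of SLC30A3 changed by 0.51 at birth (adjusted p = 0.43), and the mean of both by 0.54 at adjusted p = 0.16.

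The 10 carriers of vitamins, choline, inositol and iodide had 2 rises and 2 falls at birth (1 and 0 without the low-ratio samples), and 2 and 2 over the series. On all samples 40% were called in each of these comparisons, against 33.1% and 46.9% of all named genes. SLC5A6, the sodium-dependent multivitamin transporter of biotin and pantothenate, read 149, 172, 185, 168 and 204 at 94 dpc. The newborn samples read 157 to 1136 with a median of 282, those of 28 dpn 262 to 424 with a median of 348 and those of 188 dpn 325 to 576 with a median of 416. The samples at 28 and 188 dpn lay above all fetal ones, and the newborn ones reached from below the fetal median to the highest of all. It rose 2.31-fold over the series (1.21 ± 0.32, adjusted p = 0.0043). At birth it was called higher (0.93 ± 0.32, adjusted p = 0.035, and 1.48 at adjusted p = 0.0024 without the low-ratio samples), a call that ended without any 1 of 94 dpc replicates 1, 2, 3 and 4 and 1 dpn replicates 3 and 6 (adjusted p = 0.074 at most). SLC46A3, a lysosomal carrier, rose from 59.4 ± 14.5 at 94 dpc to 164 ± 86.9 at 188 dpn (1.16 ± 0.26, adjusted p = 0.00083). Its rise at birth (0.86 ± 0.26, adjusted p = 0.015) was 0.79 at adjusted p = 0.071 without the low-ratio samples and lost its call without 94 dpc replicate 2 (adjusted p = 0.051). The other probe set of SLC46A3 changed by 0.85 (adjusted p = 0.067) at birth and 0.73 (adjusted p = 0.094) over the series. The folate carrier SLC46A1 fell over the series (283 ± 92 to 92.7 ± 57.5, -1.62 ± 0.41, adjusted p = 0.0031), where its other probe set changed by -0.94 (adjusted p = 0.18). The riboflavin transporter SLC52A2 (-0.65 ± 0.22, adjusted p = 0.035) and the choline transporter SLC44A2 (-0.59 ± 0.16, adjusted p = 0.0086) fell at birth, and without the low-ratio samples these changes were -0.37 at adjusted p = 0.32 and -0.34 at adjusted p = 0.14. The brighter of the other 2 probe sets of SLC44A2 changed by 0.02 (adjusted p = 0.95) at birth, and the mean of its probe sets by -0.39 at adjusted p = 0.16. Both other scalings ended these calls, and for SLC52A2 so did leaving out any 1 of 94 dpc replicates 1, 2 and 4 and 1 dpn replicates 2, 4 and 5 (adjusted p = 0.082 at most).

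In the 14 genes for carriers of nucleosides, nucleotide sugars and acetyl-CoA, 3 rose and 3 fell at birth, and 1 rose from 1 to 28 dpn. From 28 to 188 dpn 1 rose and 1 fell, and 4 rose and 3 fell over the series. Their shares were 42.9%, 7.14%, 14.3% and 50%, against 33.1%, 24.1%, 18.3% and 46.9% of all named genes. SLC35F5, a member whose substrate is not settled, was called in all 3 steps. It read 276, 559, 636, 291 and 667 at 94 dpc and 134 to 371 with a median of 267 at 1 dpn. Signals of 28 dpn ran from 439 to 616 with a median of 530.5, and those of 188 dpn from 1186 to 1748 with a median of 1461. The oldest samples lay above all others, those of 28 dpn above all newborn ones, and the fetal samples formed a lower pair and an upper 3. It fell at birth (-0.82 ± 0.24, adjusted p = 0.014, and -1.15 at adjusted p = 0.004 without the low-ratio samples), rose by 28 dpn (1.04 ± 0.23, adjusted p = 0.0029, and 1.37 at adjusted p = 0.0018 without them) and rose 2.68-fold from 28 to 188 dpn (1.42 ± 0.23, adjusted p = 0.00019). The last step was called in its other 2 probe sets too, at 1.79 (adjusted p = 7.4e-06) and 1.26 (adjusted p = 0.022), and the first in 1 of them, at -0.66 (adjusted p = 0.035). In the middle step they changed by 0.53 (adjusted p = 0.095) and -0.11 (adjusted p = 0.89), and the mean of the 3 probe sets by 0.49 at adjusted p = 0.1. The fall at birth was not called without 94 dpc replicate 3 (adjusted p = 0.053) or 5 (adjusted p = 0.054) or under quantile normalization (adjusted p = 0.11) or centring (adjusted p = 0.1).

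SLC35A4, of the family of Golgi nucleotide sugar carriers, read 685, 671, 436, 682 and 571 in the fetal samples and 994 to 1801 with a median of 1557 in the newborn ones. It later ranged from 1079 to 1199 with a median of 1111 at 28 dpn and from 1022 to 1437 with a median of 1138 at 188 dpn. Every sample after birth lay above every fetal one. It rose 2.42-fold at birth (1.27 ± 0.17, adjusted p = 7.7e-06, and 1.43 at adjusted p = 1e-05 without the low-ratio samples) and was 1.92-fold above the fetal level at 188 dpn (0.94 ± 0.17, adjusted p = 1e-04). The other probe set of SLC35A4 changed by 0.95 (adjusted p = 0.24) and 1.12 (adjusted p = 0.14) in these comparisons. SLC35D2, a Golgi carrier of UDP-N-acetylglucosamine, rose at birth from 409 ± 46.5 to 882 ± 302 (1.02 ± 0.19, adjusted p = 3e-04, and 0.73 at adjusted p = 0.0038 without the low-ratio samples). SLC35B3, which brings the sulfate donor PAPS into the Golgi, fell at birth from 252 ± 88.1 to 70.9 ± 36.9 (-1.72 ± 0.41, adjusted p = 0.0031, and -2.13 at adjusted p = 0.0035 without the low-ratio samples) and over the series (-2.09 ± 0.41, adjusted p = 0.00026). Its fall from 28 to 188 dpn (-1.26 ± 0.39, adjusted p = 0.032) was not called without any 1 of 28 dpn replicates 2, 5 and 6 and 188 dpn replicates 1, 2 and 4 (adjusted p = 0.091 at most). SLC35C2, linked to fucose addition in the Golgi, fell over the series from 372 ± 33.2 to 122 ± 36.9 (-1.53 ± 0.23, adjusted p = 1.1e-05), where its other probe set changed by -0.45 (adjusted p = 0.44). SLC35B1 and SLC33A1, named after their values were seen, are the ATP/ADP exchanger of the endoplasmic reticulum and its acetyl-CoA transporter, and they changed by 0.84 ± 0.15, adjusted p = 9.8e-05, and -0.86 ± 0.24, adjusted p = 0.0061 over the series.

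Of the 4 carriers of organic ions, urea and ammonium, SLC22A3, an organic cation transporter, was called. It fell at birth from 339.8 ± 106 to 178 ± 66.8 (-0.89 ± 0.29, adjusted p = 0.027, and -1.08 at adjusted p = 0.028 without the low-ratio samples) and over the series (-1.30 ± 0.29, adjusted p = 0.0011). The former call ended without 94 dpc replicate 4 (adjusted p = 0.09) or 1 dpn replicates 1 (adjusted p = 0.055) or 6 (adjusted p = 0.059) and under both other scalings (adjusted p = 0.21 and 0.15). The 2 peptide carriers, SLC15A1 and SLC15A2, and the 2 phosphate carriers, SLC17A1 and SLC34A2, were called in no comparison, and their stage means lay between 14.3 and 107. Of the 2 other probe sets of SLC15A2, that with a mean signal of 79.2 was called lower at birth (-1.63, adjusted p = 0.0098). It was also called lower over the series (-1.40, adjusted p = 0.018). The remaining probe set changed by -0.72 (adjusted p = 0.23) and -0.01 (adjusted p = 0.99). Among the 3 genes that are not transporters, SLC2A4RG, a transcription factor named for binding near the SLC2A4 gene, dipped at 1 dpn. It read 2174, 2237, 1724, 2704 and 2524 at 94 dpc, 258 to 1812 with a median of 807 at 1 dpn and 1576 to 2537 with a median of 2224 at 28 dpn. Its newborn signals were 258 to 699 in the 3 samples of low GAPDH ratio and 914 to 1812 in the other 3, and 1 of the latter overlapped the other stages. It fell 2.89-fold at birth (-1.53 ± 0.31, adjusted p = 0.00061) and rose 2.69-fold by 28 dpn (1.43 ± 0.29, adjusted p = 0.0014), and without the low-ratio samples these were -0.93 at adjusted p = 0.0081 and 0.82 at adjusted p = 0.025. The scaffold protein genes SLC9A3R1 and SLC9A3R2 changed over the series by 0.90 ± 0.35, adjusted p = 0.048, and -0.89 ± 0.16, adjusted p = 0.00013. The first of these calls held without 1 dpn replicate 1, 2 or 3 or 188 dpn replicate 4, 5 or 6, and ended in the other 17 fits that left out 1 sample (adjusted p = 0.13 at most, without 188 dpn replicate 1).

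Across the 4 stages together, limma's moderated F test called 57 of the 118 SLC genes (48.3%), where it called 60.1% of all named genes. Above the median signal of all probe sets it called 47 of 70 (67.1%, against 71.5% of all genes above it), and below it 10 of 48 (20.8%). Of the SLC25 carriers 13 of 21 were called (61.9%) and of the other SLC genes 44 of 97 (45.4%). The 57 genes were highest at 94 dpc in 25 cases, at 1 dpn in 14, at 28 dpn in 7 and at 188 dpn in 11. As shares these are 43.9%, 24.6%, 12.3% and 19.3%, beside 40%, 22.2%, 11.6% and 26.1% of all called genes. The 13 carriers of SLC25 were highest at 94 dpc in 3 cases, at 1 dpn in 6, and at 28 and 188 dpn in 2 each, whereas the other 44 had 22, 8, 5 and 9. These stages of highest mean are those of the deposited scale, on which fetal arrays had the highest medians. They were not counted again under the other scalings. By single steps, 38 genes were called in 1, 14 in 2 and 2 in all 3, the last being SLC25A11 and SLC35F5. SLC25A11 and SLC25A33 rose at birth and fell by 28 dpn, and SLC25A14, SLC2A4RG, SLC35F5 and SLC44A2 did the opposite. These 2 steps share the newborn samples, so that a high or low newborn mean enters both. For SLC44A2 the rise to 28 dpn (0.47 ± 0.15, adjusted p = 0.037) ended without any 1 of 1 dpn replicates 2, 4 and 5 and 28 dpn replicates 1, 2, 3, 4 and 6 (adjusted p = 0.084 at most). That rise was 0.22 at adjusted p = 0.42 without the low-ratio samples. It was not called under quantile normalization (adjusted p = 0.052), with centred arrays (adjusted p = 0.1) or with the mean of its probe sets (adjusted p = 0.17). A further 8 genes were called between 94 dpc and 188 dpn but in no single step: SLC1A4, SLC38A10, SLC5A4, SLC25A46, SLC9A3R1, SLC35C2, SLC46A1 and SLC31A1. A total of 56 genes were called in none of the 4 comparisons.

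**Figure D5:**
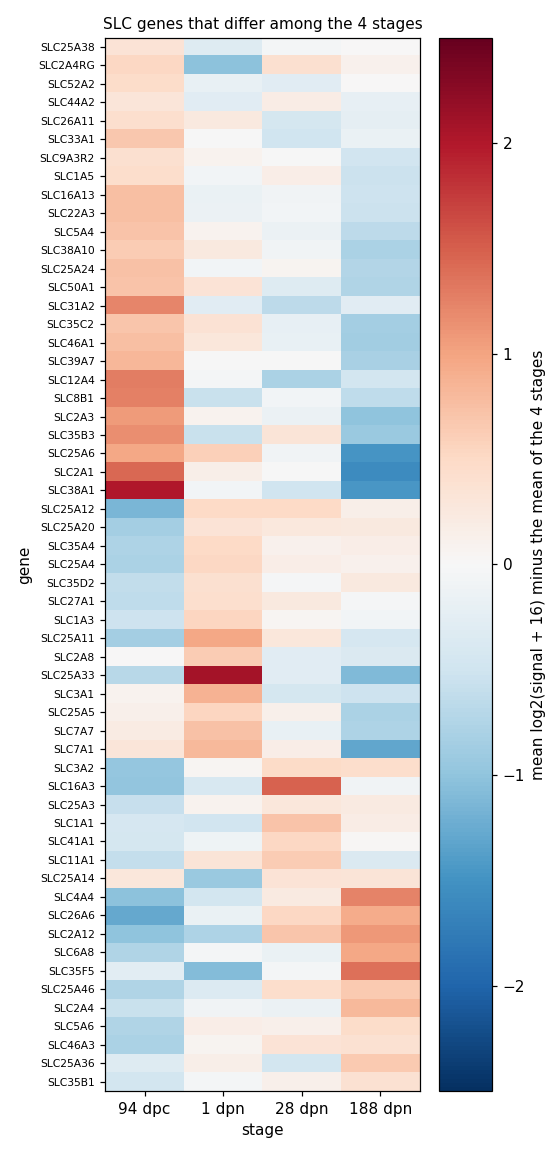
Stage means of log2(signal + 16) of the 57 SLC genes called by the F test (rows), each less the mean of its 4 stages (colour, red above and blue below), for the 4 stages (columns). Genes are grouped by the stage of their highest mean on the deposited scale: 94 dpc (25 genes), 1 dpn (14), 28 dpn (7) and 188 dpn (11).

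Carriers and partners that lack an SLC name gave 23 measured of 34 listed genes. At birth 8 of them rose and 2 fell (43.5%, against 33.1% of all named genes). From 1 to 28 dpn 2 rose and 6 fell (34.8%, against 24.1%), and from 28 to 188 dpn 1 rose and 3 fell (17.4%, against 18.3%). Over the series 6 rose and 6 fell (52.2%, against 46.9%). MPC2, a subunit of the mitochondrial pyruvate carrier, had mean signals of 6516 ± 1335 at 94 dpc and 33731 ± 7644 at 1 dpn (2.36 ± 0.19, adjusted p = 1.5e-08), and its partner MPC1 had 16137 ± 1856 and 24992 ± 5159 (0.61 ± 0.16, adjusted p = 0.0053). BSG, the chaperone that brings lactate transporters to the membrane, rose at birth (1.1 ± 0.20, adjusted p = 0.00026) and fell by 28 dpn (-0.71 ± 0.19, adjusted p = 0.012). FABP3, the fatty acid binding protein of muscle, rose at birth (2.54 ± 0.31, adjusted p = 2.3e-06). UCP3, the muscle member of the uncoupling proteins, which belong to the SLC25 family by descent, went from 57 ± 37.4 at 94 dpc to 2332 ± 1170.1 at 188 dpn (5.02 ± 0.38, adjusted p = 4.7e-10), and UCP2 fell (-2.02 ± 0.52, adjusted p = 0.0032). TXNIP and ARRDC4, related arrestins that curb glucose uptake, moved in opposite directions at birth (1.03 ± 0.20, adjusted p = 0.00036, and -1.28 ± 0.26, adjusted p = 0.00063). The sodium pump subunits ATP1B1 and ATP1B3, whose pump maintains the sodium gradient that many SLC carriers use, did so as well (1.76 ± 0.20, adjusted p = 1.3e-06, and -1.52 ± 0.23, adjusted p = 3.7e-05). Among these partner genes, the changes at birth without the low-ratio samples were 2.10 at adjusted p = 1.5e-06 for MPC2, 0.88 at adjusted p = 0.00028 for MPC1 and 0.90 at adjusted p = 0.0046 for BSG. They were 3.04 at adjusted p = 1.6e-06 for FABP3, 0.78 at adjusted p = 0.011 for TXNIP and -1.54 at adjusted p = 0.00055 for ARRDC4. They were 1.52 at adjusted p = 8.5e-05 for ATP1B1 and -1.13 at adjusted p = 0.00099 for ATP1B3. The fall of BSG to 28 dpn was then -0.51 at adjusted p = 0.13.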

How the data were processed

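The 23 samples were hybridised to porcine Affymetrix arrays, 1 array each, from total RNA that, per the labels' protocols, came from a TRI Reagent extraction, a DNase digest and a column cleanup and was made into biotin cRNA. The authors deposited 1 linear intensity per probe set. The submitters' processing notes name GCOS 1.1.1 without its role. How probes were summarised and background removed is not given in the sources, and no detection calls were used. The mean without the top and bottom 2% of probe sets was close to 500.1 on every array, so the deposited values were already on 1 common scale and show changes relative to that mean. Of 24123 probe sets, 124 control sets were left out and 23999 tested. A single gene symbol was attached to 10069, several to 198 and none to 13732, and the Entrez IDs of 116 of the 118 SLC genes were in the RefSeq table. Columns that matched no sample numbered 0, and no pair of arrays was identical.

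Deposited intensities were used without rescaling as log2(signal + 16). limma 3.58.1 in R 4.3.3 was fitted to all 23 arrays with stage as the only term (lmFit, eBayes), with Benjamini-Hochberg adjustment over the tested probe sets. Tables and plots used Python 3.11.15, pandas 2.3.3 and matplotlib 3.10.9. The fit was tested on simulated data. Array number limits the precision.

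Substrate classes follow the family number, except that SLC2A4RG, SLC9A3R1 and SLC9A3R2 were set apart after the values were seen. In each class and comparison up to 4 called genes of largest change were named, with a panel of 19 transporters of which 13 were measured (not SLC16A1, SLC6A6, SLC7A5, SLC38A2, SLC4A1 and SLC40A1). SLC25A3, SLC25A38, SLC35B1, SLC33A1, SLC5A4, SLC1A4, SLC2A2, SLC11A2, SLC30A5 and the genes named as not called were named after their values were seen. Of the 118 genes, 38 had several probe sets. For the genes called in the 4 comparisons, other probe sets numbered 18, 15, 6 and 21. Of these 4, 0, 2 and 4 were called in the same direction as the gene. The other direction was seen in 3, 6, 3 and 3, none of them called. The genes and lists were chosen with earlier results of these data known. Alternatives were other scalings, pseudocounts, filters, weights, probe set rules, the GAPDH ratio and leaving out samples.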

Additional observations from a re-analysis of the deposited data

Results flagged for a closer look

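Among the 224 stage groups of 56 SLC genes, 10 held a sample whose gap to its nearest neighbour was large for the range of its group by Dixon's 95% criterion, and chance gives about 1 in 20. In fetal samples, SLC25A12 read 997 in replicate 5 (next 1440), SLC8B1 83.6 in replicate 5 (next 140) and SLC26A6 27.1 in replicate 1 (next 79.8). At 1 dpn, SLC25A14 read 9.45 in replicate 4 (next 41.5) and SLC9A3R1 1130 in replicate 2 (next 361), both in samples of low GAPDH ratio. At 28 dpn, SLC12A4 read 26.8 in replicate 2 (next 88.7), SLC50A1 205 in replicate 2 (next 319), SLC27A1 310 in replicate 6 (next 167) and SLC9A3R1 678 in replicate 4 (next 495). At 188 dpn, SLC2A12 read 256 in replicate 3 (next 368).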

How the results depend on the processing

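The naming rule and the panel gave 102 called results. Of these, 60 kept their call and direction in every alternative and 42 lost the call in at least 1. None of the 102 reversed. Other calls quoted above were not followed gene by gene through all alternatives. Among these were the fall of SLC25A11 from 28 to 188 dpn, those of SLC25A14 and SLC25A24 at birth, and those of genes named after their values were seen. Calls kept numbered 83 under quantile normalization, 86 with centred arrays, 96 with pseudocount 1, 102 with pseudocount 64, 84 with only the stages compared, 101 with trend and robust variance, 98 with array weights, 89 with the mean of a gene's probe sets, 82 without the 3 samples of low GAPDH ratio, 79 with that ratio as covariate and 87 of 87 without dimmer probe sets. The rule of highest linear mean, added after seeing the data, kept all 102. Falls at birth numbered 19, against 10 under quantile normalization, 11 centred and 12 with only the stages compared. Rises to 28 dpn numbered 11, against 7 under quantile normalization, 5 with only the stages compared, 6 without the low-ratio samples and 3 with the covariate, and falls numbered 7, against 3 with only the stages compared and 13 without dimmer probe sets. From 28 to 188 dpn, rises numbered 5, against 3 both without dimmer probe sets and with mean probe sets, and falls 12, against 7 centred. Rises over the series numbered 19, against 34 centred. Leaving out 1 sample gave 13 to 19 rises and 15 to 19 falls at birth, 6 to 11 and 5 to 10 to 28 dpn, 3 to 5 and 7 to 14 to 188 dpn, 17 to 21 and 25 to 27 over the series, and 50 to 60 genes in the F test. The largest moves were 6 rises to 28 dpn without 1 dpn replicate 4 or 28 dpn replicate 4 and 7 without 1 dpn replicate 3 or 28 dpn replicate 1, 3 or 6, 3 rises to 188 dpn without 188 dpn replicate 2 or 3, and 7 falls without 28 dpn replicate 5. Changes of panel genes that were not called gained a call in some alternatives for SLC25A6 and SLC16A3 at birth, SLC25A4 and SLC3A2 to 28 dpn, and SLC8A1, SLC27A1 and SLC16A3 over the series. The signs that turned were all of changes not called, and the cause was not tested. From 1 to 28 dpn, SLC6A8 changed by 0.12 without the low-ratio samples and 0.095 with the covariate. Leaving out 1 sample gave -0.33 to 0.0027 for SLC6A8 in that step, -0.38 to 0.015 for SLC27A1, -0.38 to 0.0074 for SLC2A1, -0.28 to 0.11 for SLC2A4 and -0.25 to 0.029 for SLC25A20. From 28 to 188 dpn, SLC3A2 changed by 0.035 under quantile normalization and 0.054 centred, SLC25A20 by 0.077 and SLC25A4 by 0.039 centred, and SLC8A1 by -0.033 with pseudocount 1. Leaving out 1 sample there gave -0.13 to 0.036 for SLC3A2, -0.14 to 0.26 for SLC8A1, -0.067 to 0.048 for SLC25A20 and -0.12 to 0.0047 for SLC25A4. No paired analysis was possible because the labels give the stages no shared replicate numbers and the replicates are numbered in accession order. Signals come without detection calls, so changes of the 28 genes under 100 at all stages are limited by an unknown background.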
